A study of Mus musculus with 2 samples.

Results

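A group of 9 genes of cell adhesion, synaptic scaffolds and voltage-gated calcium channels had differentially methylated regions in the hippocampus of mouse offspring whose dams differed in dietary choline. The genes were Celsr1, Ptprs, Cdh23, Nrxn2, Bsn, Dbn1, Prr7, Cacna1a and Cacna1g. Every distinct region with a line for one of them in the authors' deposited table was taken, which gave 11 of the table's 276 regions for 9 of its 296 gene symbols. The table lists regions that differed between both libraries, so the regions were selected on the measured difference in methylation. All differences below are therefore a description and were not tested.

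The libraries were made by reduced representation bisulfite sequencing (RRBS), in which genomic DNA is cut at CCGG by MspI and unmethylated cytosines are converted before sequencing. The choline library (F1m-GCS) came from offspring of dams whose feed held choline chloride at 5 g/kg between embryonic day 9 and birth. The control library (F1m-CON) came from offspring of dams on a normal diet with 1.1 g/kg. All offspring received a basal diet after birth and were tested for mood-related behaviour at 2 months of age. Each group had 1 library, so no value has a replicate error, and the labels give no strain or number of animals per library. In whole hippocampus, a change of methylation within cells and a change in the mixture of cell types cannot be told apart.

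Neurexins and the receptor phosphatases of the LAR family are presynaptic adhesion proteins that bind partners across the cleft and organise the terminal. Scaffold proteins such as bassoon hold vesicles and calcium channels at the active zone, and calcium entry through P/Q-type channels triggers transmitter release. At CpG-rich gene starts methylation is usually low, while gene bodies are usually more methylated.

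Of the 11 regions, 7 had a higher methylation level in the choline library and 4 had a lower one. The share higher was 63.6%, and of all 276 listed regions 73.6% were higher and 26.4% lower. Adhesion genes had 2 regions higher and 3 lower, scaffold genes 2 higher and 1 lower, and calcium channel genes 3 higher and 0 lower. The size of the difference had a median of 13.9 percentage points (range 10.4 to 21.8), against 12.5 over all listed regions. Celsr1, Bsn, Ptprs and Cdh23 differed by at least 15 points, 4 of 11, as did 30.8% of all listed regions. Every region in the whole table differed by at least 10 points and at least 1.5 times. The smallest difference among the 11, 10.4 points at the end of Prr7, lay just inside the limit of 10 points. The Cacna1a coding region (1.52 times) and Bsn (1.56 times) lay nearest the limit of 1.5 times. At levels as high as those of Bsn and Cdh23, a region must differ by more than 10 points to reach 1.5 times. The count at 15 points or more thus depends on that limit too. What lay just outside the limits was not analysed here. The levels of the 4 regions that were lower in the choline library were 19.0% to 45.7% in the control.

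**Figure D1:**
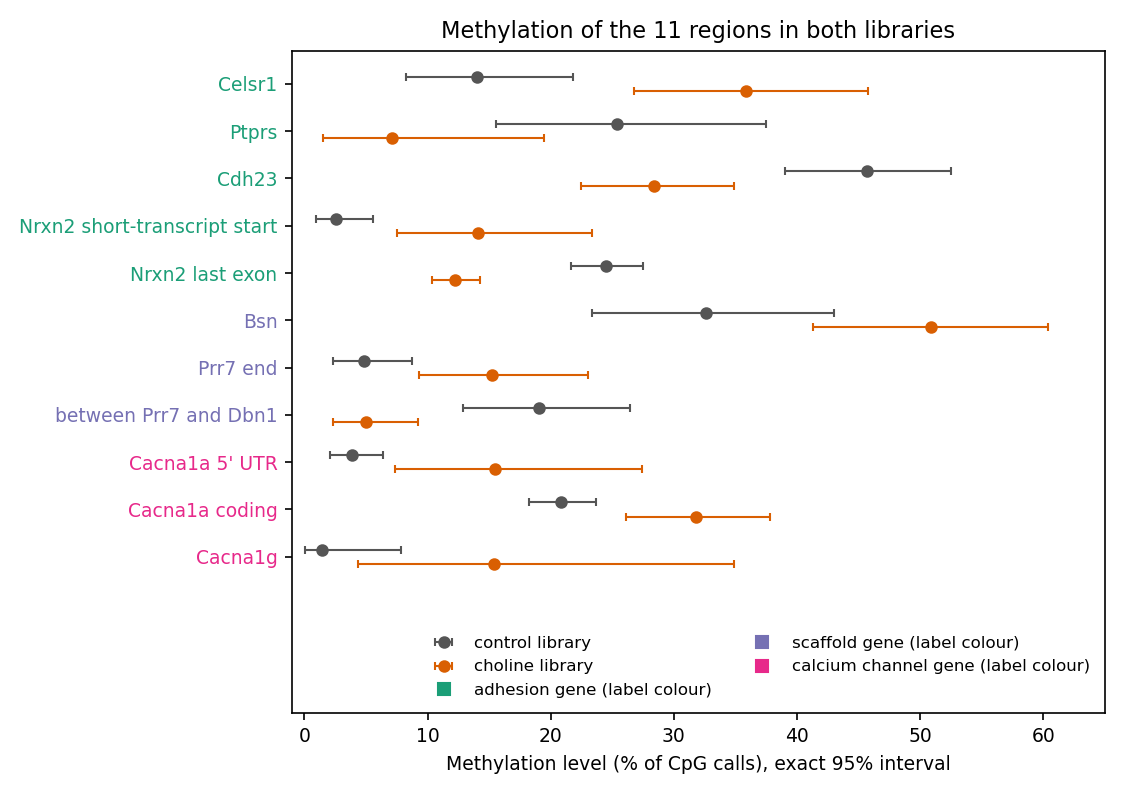
Methylation level (percent of CpG calls) of the 11 regions in the control (grey) and choline (orange) library, with exact 95% intervals that cover counting error only. The intervals are apart in 8 regions and overlap at Ptprs, Bsn and Cacna1g. Of the 259 listed regions with whole calls, 68.0% have intervals apart. The intervals treat CpG calls on the same read as independent, although such calls are not.

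Sequencing was shallower in the choline library at most of these regions. The control library was the deeper one in 8 of the 11 regions, against 79.0% of all listed regions. The mean depth per CpG position was 11.2 to 36.8 for control (median 16.3) and 4.83 to 35.8 in the choline library (median 9.83). The choline depth was below 10 in 6 of the 11 regions, against 81 of 276 listed regions (29.3%), and 5 of those 6 were higher in the choline library. Of the 81 listed regions at such depth 71 were higher (87.7%), a share near that of the 6. Over the 11 regions the control library had 3285 calls and the choline library 2342. Exact Clopper-Pearson 95% intervals on the CpG calls did not overlap between the libraries in 8 of the 11 regions, and in 68.0% of the 259 listed regions with whole calls. CpG calls on 1 read are not independent, and when the mean depth was taken as the number of reads the intervals overlapped in all 11 regions and in all 276 (0% apart). The true number of reads over a region is not known and is at least the mean depth. It is above the mean depth wherever no read covers all positions, as when positions on both strands are counted. An overlap at this setting therefore does not show that a difference is absent. With 0% apart over the whole table, this setting cannot single out any region.

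Sequence could be shown for Nrxn2, the gene of neurexin 2, whose long alpha and short beta forms start from separate promoters. The deposited coordinates were not those of GRCm38 for the other members, but each of the 4 deposited element lines of Nrxn2 had the same start and end there as in RefSeq on GRCm38. The stretches below are read from GRCm38, on the plus strand, with each CpG in capitals, because methylation was measured at CpG positions. Fewer positions were deposited than there are CpG cytosines over both strands, and which of them were measured is not known here. The first is the coding part of the first region and the second is the whole second region.
Nrxn2 first region from the start codon, chr19:6498279-6498407: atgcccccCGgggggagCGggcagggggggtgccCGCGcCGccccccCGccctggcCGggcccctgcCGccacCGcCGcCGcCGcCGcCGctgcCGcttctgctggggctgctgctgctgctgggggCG
Nrxn2 second region, chr19:6531773-6531999: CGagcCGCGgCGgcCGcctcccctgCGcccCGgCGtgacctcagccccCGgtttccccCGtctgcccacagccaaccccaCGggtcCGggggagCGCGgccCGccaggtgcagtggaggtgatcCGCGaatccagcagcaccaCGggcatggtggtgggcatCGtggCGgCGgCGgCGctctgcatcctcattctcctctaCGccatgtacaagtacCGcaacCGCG
The second region held 27 CpG dinucleotides, or 54 CpG cytosines over both strands, and 3 CCGG sites. The deposited number of CpG positions was 41, above the number of dinucleotides, so positions on each strand were counted there. The first region held 29 dinucleotides and 5 CCGG sites, and 15 positions were deposited.

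The first Nrxn2 region (chromosome 19, 6498184 to 6498407) was annotated as intron alone in the deposited table, 4728 bases into an intron of 11419 bases. In the GENCODE annotation of GRCm38 it lay wholly inside the first exon of both short transcripts whose start codon lies in that intron. That start codon fell within the region, with 95 bases of the region before the codon and 129 from the codon on. The region began 356 and 349 bases past the starts of these transcripts. In the control library 6 of 231 calls were methylated, or 2.60% (exact 95% interval 0.959 to 5.57). In the choline library it was 12 of 85 calls, or 14.1% (7.51 to 23.4), which is 11.5 points higher, at depths of 15.4 and 5.67.

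The second Nrxn2 region (chromosome 19, 6531773 to 6531999) lay in the last coding exon, exon 23 of 23, which in neurexins encodes the membrane span and the cytoplasmic tail. In transcripts with the shorter form of that exon, 71 bases of the region are intron and 156 are coding. Of 873 control calls 214 were methylated, or 24.5% (21.7 to 27.5), and of 1139 choline calls 139 were, or 12.2% (10.4 to 14.2). This was a difference of -12.3 points at depths of 21.3 and 27.8, the most calls of any of the 11 regions. The start of the short form and the shared last exon of Nrxn2 thus had opposite directions in the same pair of libraries.

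Celsr1 encodes an atypical cadherin of planar cell polarity, and it had the largest difference of the 11 regions, the 17th largest of the 276. The region (chromosome 15, 85778443 to 85778546, 7 CpG positions) lay in an intron whose length of 17853 bases is that of intron 5 of 34 in RefSeq. The control library had 16 methylated calls of 114, or 14.0% (8.24 to 21.8), and the choline library 38 of 106, or 35.8% (26.8 to 45.7). The difference was 21.8 points at similar depths of 16.3 and 15.1. The 3 regions of other genes with the most similar pair of levels were those of Rbfox3 (15.8% and 33.0%), Tnfrsf21 (15.2% and 32.6%) and 4930599N23Rik with Parp12 (17.0% and 31.6%).

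Ptprs encodes the receptor phosphatase sigma, a LAR family protein that also binds proteoglycans. Its region (chromosome 17, 56564723 to 56564779, 6 CpG positions) spanned the 3' border of a coding exon, with 30 coding and 27 intron bases. The exon's 600 bases match exon 14 of 33 in RefSeq, and another deposited intron line of 9475 bases runs across this exon, so it is not in every transcript. The level was 17 of 67 calls in the control, or 25.4% (15.5 to 37.5), and 3 of 42 choline calls, or 7.14% (1.50 to 19.5). The difference of -18.2 points was the largest loss among the 11 regions and rested on the fewest calls of the 4 lower regions, at depths of 11.2 and 7. The closest pairs of levels at other genes were at Adamtsl5 (21.5% and 6.93%), B130024G19Rik (21.6% and 5.77%) and Zfpm1 (21.5% and 6.06%).

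Cdh23 encodes an atypical cadherin known for the tip links of hair cells. Its region (chromosome 10, 60154743 to 60154889, 6 CpG positions) lay 4158 bases into an intron of 9196 bases, the length of intron 1 of 70 in RefSeq. It had the highest control level of the 11 regions, 101 of 221 calls or 45.7% (39.0 to 52.5), and stood at 61 of 215 calls or 28.4% (22.5 to 34.9) in the choline library. The difference was -17.3 points. Depth was even, at 36.8 and 35.8, and was the highest of the 11 regions in both libraries.

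Bsn encodes bassoon, a large scaffold of the presynaptic active zone. Its region (chromosome 9, 108085927 to 108086054, 8 CpG positions) lay 6320 bases into an intron of 50448 bases, the length of intron 1 of 11 in RefSeq. The level was 31 of 95 calls in the control, or 32.6% (23.4 to 43.0), and 58 of 114 choline calls, or 50.9% (41.3 to 60.4), the highest choline level of the 11 regions. The difference was 18.2 points, and depth was higher in the choline library (11.9 and 14.3).

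Dbn1 and Prr7 are convergent neighbours that share both of their regions. Dbn1 encodes drebrin, an actin-binding protein of dendritic spines, and Prr7 encodes a transmembrane protein of the postsynaptic density. In the deposited coordinates their 3' ends were 272 bases apart. The first region (chromosome 13, 55574294 to 55574401, 12 CpG positions) held 58 bases of Prr7 coding sequence and 50 bases of its 3' UTR. The second region (chromosome 13, 55574521 to 55574703, 10 CpG positions) lay between both 3' ends, 5 to 187 bases past that of Prr7.

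These neighbouring regions, 119 bases apart, differed in opposite directions. At the end of Prr7 the level was 10 of 207 calls in the control, or 4.83% (2.34 to 8.70), and 18 of 118 choline calls, or 15.3% (9.30 to 23.0). Between the genes it was 27 of 142 calls in the control, or 19.0% (12.9 to 26.4), and 9 of 181 choline calls, or 4.97% (2.30 to 9.23). The differences were 10.4 and -14.0 points. The library with the higher depth was the less methylated one at each, with 17.3 and 9.83 at the first and 14.2 and 18.1 at the second region. With the calls of both regions added, the levels were 10.6% (control) and 9.03% (choline), which differ by -1.57 points.

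The table also gave both of these regions a promoter line for Dbn1, which is on the minus strand. That line was centred on the 3' end of Dbn1, at 0 bases from it, and the shortest RefSeq transcript of Dbn1 spans 14649 bases. Promoter lines of minus-strand genes were centred on the 3' end in 6 of 6 cases where the table allowed a check, and those of plus-strand genes on the start in 39 of 41. The regions of Dbn1 and Prr7 are therefore described as gene ends here.

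**Figure D2:**
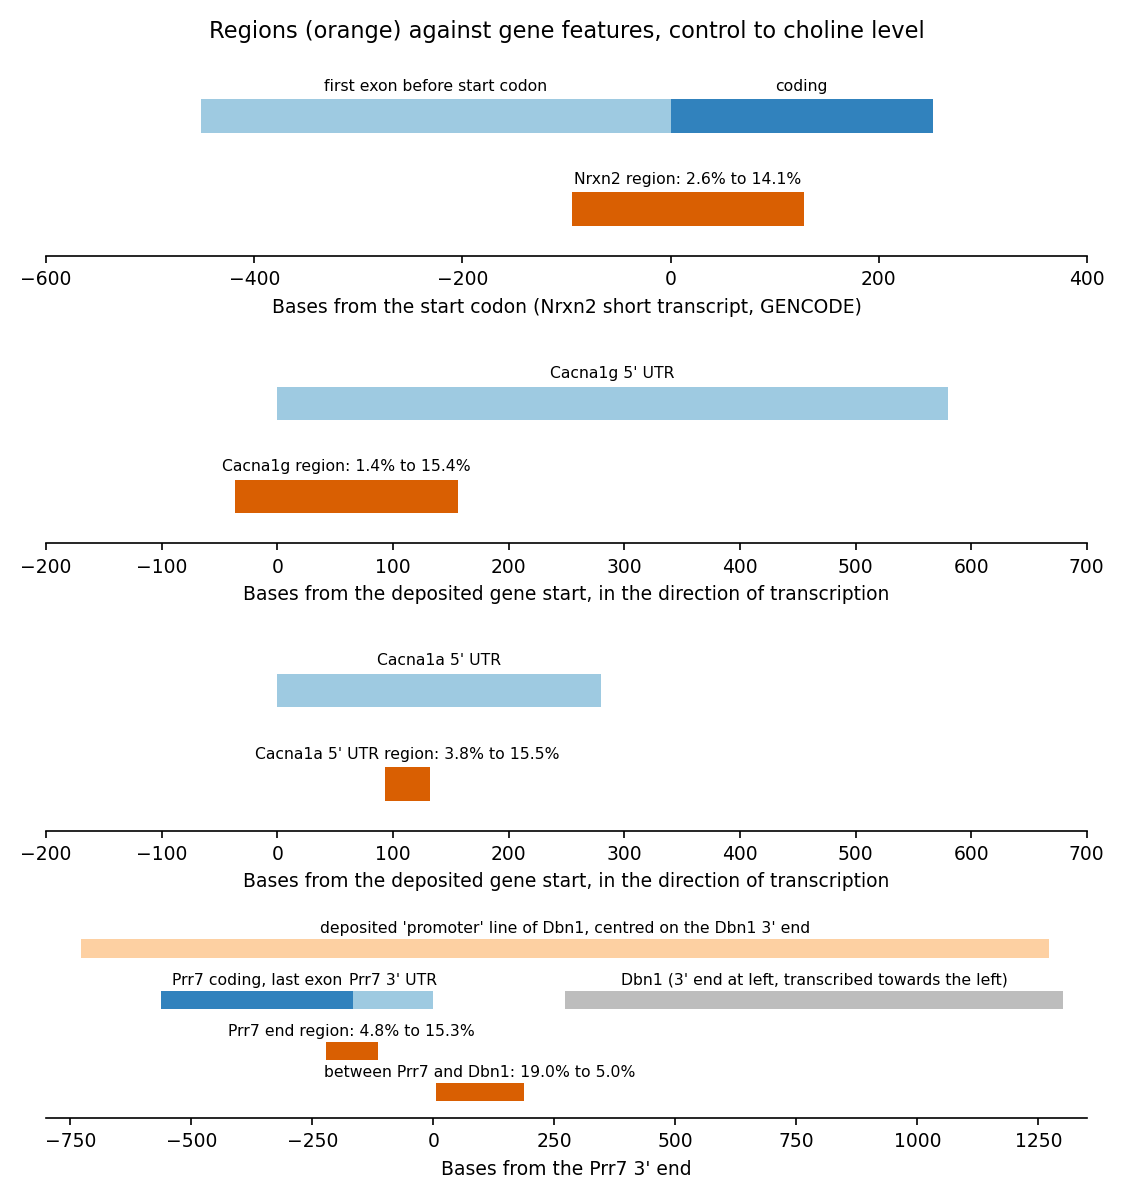
Position of 5 of the regions (orange) against annotated features in bases, from the start codon of the short Nrxn2 transcripts, from the deposited starts of Cacna1g and Cacna1a, and from the 3' end of Prr7, with control and choline level. The first 3 regions sit at starts and the 2 lowest at the facing ends of Prr7 and Dbn1, under a deposited promoter line that is centred on the Dbn1 3' end.

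Both calcium channel genes encode pore-forming subunits. Cacna1a encodes that of the P/Q-type channel, which drives transmitter release, and Cacna1g that of a low-voltage-activated T-type channel. The region of Cacna1g (chromosome 11, 94335356 to 94335549, 5 CpG positions) reached from 37 bases before the deposited start to 156 bases past it, in the 5' UTR. The level was 1 of 69 calls in the control, or 1.45% (0.0367 to 7.81), and 4 of 26 choline calls, or 15.4% (4.36 to 34.9). The difference of 13.9 points rested on 26 calls, the fewest of any of the 11 regions, at depths of 13.8 and 5.2, and the intervals overlapped.

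The first Cacna1a region (chromosome 8, 86939356 to 86939395, 12 CpG positions) lay in the 5' UTR, 93 to 132 bases past the deposited start. The control library had 14 methylated calls of 364, or 3.85% (2.12 to 6.37), and the choline library 9 of 58, or 15.5% (7.35 to 27.4). The difference was 11.7 points, and the depth was 30.3 in the control against 4.83 in the choline library, a ratio of 6.28 that was the largest of the 11 regions. The second Cacna1a region (chromosome 8, 87083355 to 87083548, 33 CpG positions) lay in a coding exon of 675 bases, the length of exon 19 of 48 in RefSeq. There 188 of 902 calls were methylated in the control, or 20.8% (18.2 to 23.6), and 82 of 258 in the choline library, 31.8% (26.1 to 37.8). These differ by 10.9 points, at depths of 27.3 and 7.82. Both Cacna1a regions were thus higher in the choline library, from a low level at the start and a higher one in the coding exon.

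The next comparison set gene starts against gene bodies. With promoter, 5' UTR and upstream lines counted as deposited, 4 regions were at gene starts, of which 3 were higher (75%), and 7 were in gene bodies, of which 4 were higher (57.1%). The 4 include both Dbn1 and Prr7 regions. With minus-strand promoter lines left out and the first Nrxn2 region counted as a start, an assignment made after the data were seen, the starts of Nrxn2, Cacna1a and Cacna1g remained, and 3 of 3 were higher. The other 8 regions were then 4 higher and 4 lower. Over all 276 listed regions, with minus-strand promoter lines left out, 80.4% of 112 start regions and 68.9% of 164 other regions were higher. No further starts were looked up over the 276, as was done at Nrxn2, so the 164 can include gene starts.

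These 3 starts had similar levels, 1.45% to 3.85% in the control library and 14.1% to 15.5% in that of choline. Their choline depths of 4.83 to 5.67 were the lowest of the 11 regions. The choline level multiplied by the depth came to 0.75 methylated calls per CpG position at Cacna1a, 0.80 at Cacna1g and 0.80 at Nrxn2. A value below 1 means that on average less than 1 methylated read covered each position, and it was found in 37 of the 203 listed regions that were higher in the choline library (18.2%). Since each listed region differs by at least 10 points, one with a control level below 5% can only be higher, and all 64 such regions in the table were. Of these 64, 50 had a choline depth below 10. The part of shallow sequencing in the differences at the 3 starts was not tested.

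**Figure D3:**
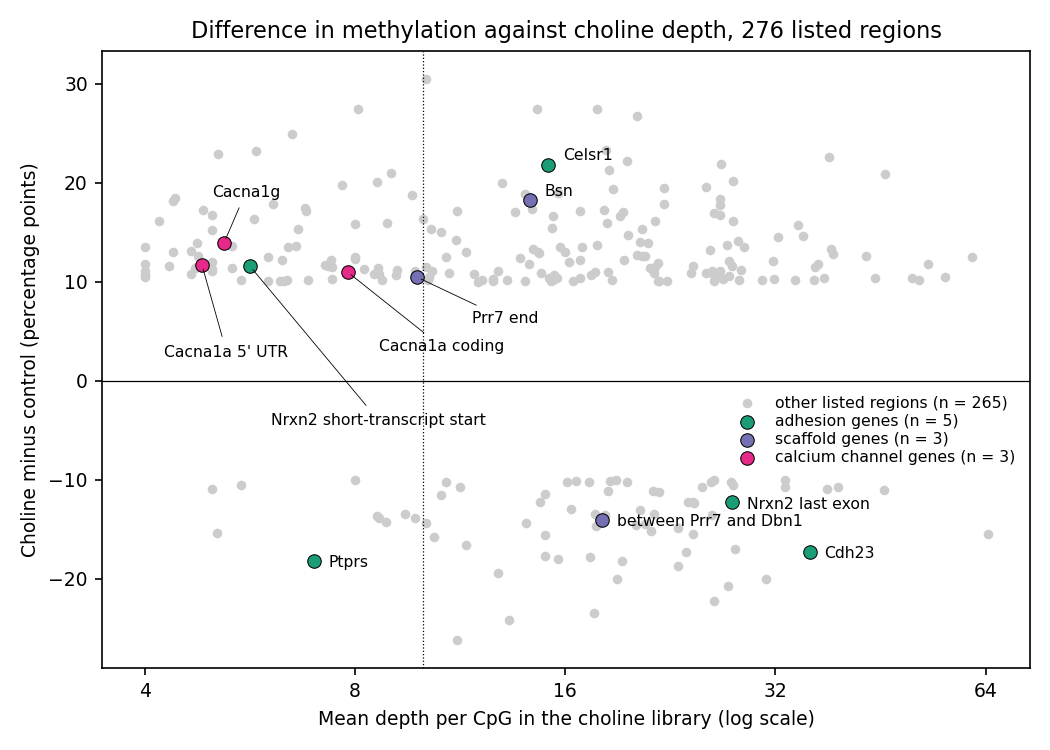
Difference in methylation (choline minus control, percentage points) against mean depth per CpG in the choline library (log scale) for all 276 listed regions, with the 11 regions coloured by role and a dotted line at a depth of 10. The 3 calcium channel regions, the start of the short Nrxn2 transcripts, the end of Prr7 and Ptprs lie left of the line. Of these only Ptprs is lower in the choline library. Celsr1, Bsn, Cdh23, the last exon of Nrxn2 and the region between Prr7 and Dbn1 lie right of the line.

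In 5 of the 11 regions both libraries reached a depth of 10. Celsr1 and Bsn were higher in the choline library, and Cdh23, the last exon of Nrxn2 and the region between Prr7 and Dbn1 were lower, a share higher of 40.0% against 67.7% of the 192 listed regions at that depth. None of the 5 was at a gene start by strand. The median size of their difference was 17.3 points, against 12.5 over the 192.

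**Figure D4:**
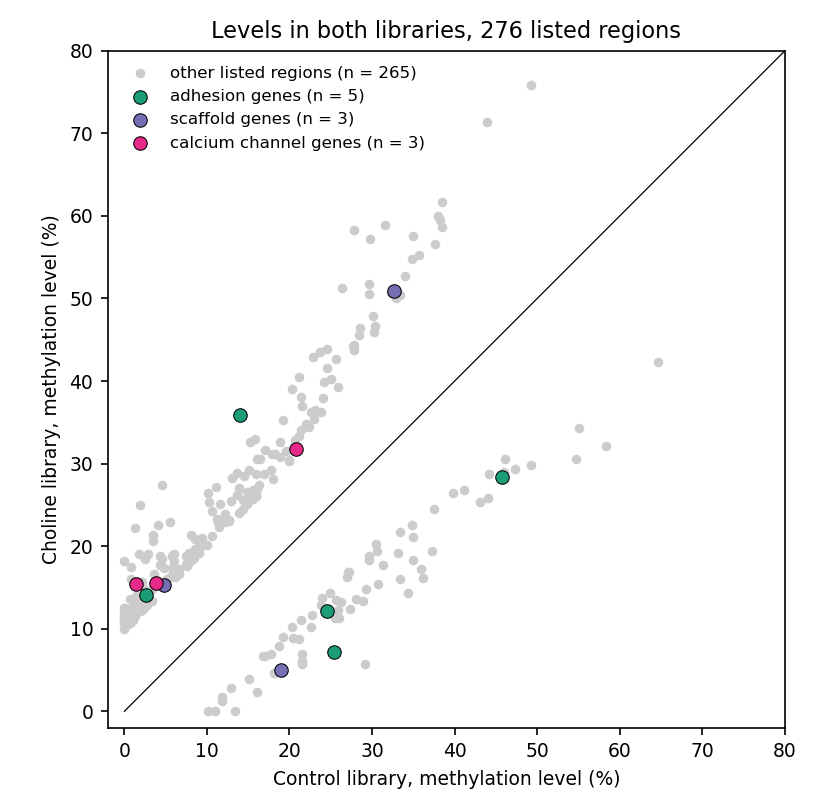
Methylation level (percent) in the choline library against the control library for all 276 listed regions, with the 11 regions coloured by role and a diagonal of equal levels. The empty band along the diagonal is the minimum difference of 10 points, and Celsr1 (14.0% and 35.8%) lies farthest above the diagonal of the 11.

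Other genes of the same pathways were looked up in lists written with earlier results of these data known. Of 58 synaptic adhesion genes 4 had a region, in 5 regions of which 3 were higher and 2 lower. Besides Nrxn2 and Ptprs these were Nlgn2, a neuroligin and so a postsynaptic partner of neurexins (12.2 points), and Adgrl1, a latrophilin receptor (10.2 points). Of 42 cadherins 5 had a region, 3 higher and 2 lower. Among them were Celsr1 and Cdh23, which were not on the synaptic adhesion list. Fat4 (10.9 points) and Pcdh7 (10.3 points) were higher in coding sequence, and Cdh22 had a difference of -10.3 points. Of 14 planar cell polarity genes and of 37 genes of the presynaptic active zone, 1 each had a region, Celsr1 and Bsn.

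Of 36 genes of postsynaptic scaffolds and spine actin 5 had a region, 3 regions higher and 2 lower. Shank1 (11.4 points) and Anks1b (13.5 points) were higher, and Dlgap3, which links PSD-95 to Shank proteins, had a difference of -10.3 points. Of 26 voltage-gated calcium channel subunits 3 had a region, in 4 regions that were all higher, the fourth upstream of Cacng2, an auxiliary subunit that traffics AMPA receptors. The choline depth was below 10 in each of the 4, and of all 81 listed regions at such depth 87.7% were higher. Cacng2 stood at 2.08% and 13.8% at depths of 30.0 and 7.25, and Adgrl1, at its start, at 1.94% and 12.1% at depths of 22.3 and 5.50. Both had low control levels and shallow choline coverage like the starts of Cacna1a, Cacna1g and Nrxn2. Whether a gene with no region was covered is not known here, so these counts describe the table and not the pathway.

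Marker genes of cell types were also looked up. Regions lay at 2 of 15 neuron markers, Rbfox3 (17.2 points) and Calb2 (17.1 points), and at 1 of 7 astrocyte markers, Aldh1l1 (27.4 points). There were 0 at 11 oligodendrocyte, 7 microglia and 8 endothelium and choroid plexus markers. A list of differing regions does not show which cell types a library held, so the label of hippocampus was not checked, and the part of cell mixture in the differences was not tested.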

How the data were processed

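The authors deposited 1 table of regions that differed between 2 RRBS libraries. The design text names cutadapt for trimming and SOAPaligner 2.21 for alignment to converted genomes. The submitters' processing notes also name CASAVA 1.8. How regions were called and tested is not given in the sources used here. Per the file headers and values, the deposited methylation fraction is the share of methylated CpG calls of a region, printed here as a percent, and the deposited coverage is a mean depth per CpG position. The deposited p-values compare both libraries and helped to choose the regions, so none is used. Among the 11 regions the adjusted p in the authors' deposited table was 1.58e-11 to 0.0237.

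The 725 lines were reduced to 276 distinct regions. Promoter symbols that had lost letters were restored from other lines of the same region. Level, depth and number of positions gave whole calls for 259 regions (tolerance 1e-06), among them all 11 described. Exact 95% intervals were computed with scipy 1.17.1 and pandas 2.3.3 and cover counting error only, and the code was tested on simulated data. The design text names mm10 and the processing notes name mm9 and mm10. All 15 coding, intron and UTR lines of the 9 genes had a RefSeq feature of the same length on GRCm38, but only the 4 of Nrxn2 had the same coordinates. Positions are therefore printed as deposited, exon and intron numbers come from equal lengths, and sequence was read for Nrxn2 alone.

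The members and gene lists were chosen with earlier results of these data known. The genes named are all 9 members, every gene of the lists with a region, and the 3 regions nearest in level to the largest gain and the largest loss. With 1 library per group no test was made. As alternatives, depth, difference, number of positions, merging of neighbours, the definition of a gene start and the unit of the interval were varied.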

Additional observations from a re-analysis of the deposited data

How the results depend on the processing

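Of the 11 regions 63.6% were higher in the choline library. The share was 40.0% of 5 at a depth of 10, 50.0% of 4 at a difference of 15 points and 66.7% of 6 at 10 CpG positions. With neighbours merged it was 60% of 10. The exact 95% interval of the main share (30.8 to 89.1) holds all of these. It is wide, takes regions of 1 gene as independent and is set against parts of the same 11 regions, so it does not measure stability. With both depths at 20 or more the share was 0% of the 2 regions left, Cdh23 and the last exon of Nrxn2. The same held among gene body regions, where both lie. Of the gene start regions as deposited, 75% of 4 were higher. At a depth of 10 the 1 region left was the one between Prr7 and Dbn1 (0% higher), and no start region was left at a depth of 20 or a difference of 15 points. In assignments chosen after the data were seen, 100% of 2 start regions were higher without minus-strand promoter lines, and 100% of 3 with the Nrxn2 first exon added. The median difference of 13.9 points was 18.2 among regions differing by at least 15 points, by construction, and 1.66 as a log2 ratio, a different scale. Of 8 regions with intervals apart on calls, 0 stayed apart with the mean depth taken as the number of reads. With 2 times the mean depth, a unit added after the data were seen, 0 stayed apart too. Smaller counts give wider intervals. Matching older gene names moved the number of listed genes with a region from 20 to 21. No paired analysis was possible because each group had 1 library, and no library could be left out.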

Other observations

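The annotation lines of the table depend on strand in a way that touches other genes too. The table held 84 distinct promoter lines for plus-strand genes and 15 for minus-strand genes. Cdh22, a cadherin named here after its values were seen, carried a promoter line together with a 3' UTR line and had levels of 21.4% (control) and 11.1% (choline). With minus-strand promoter lines left out, the listed start regions numbered 112 instead of 126, and the share of them higher in the choline library was 80.4% instead of 77.8%.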
